A study of Mus musculus with 3 samples.

Results

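S100a1, S100a4, S100a6, S100a10, S100a11, S100a13 and S100a16 were followed through single-cell RNA libraries of the adult mouse cochlea. They were taken by gene symbol, and they are 7 of the 31053 genes in the deposited matrices. They were chosen by their sums of UMIs (unique molecular identifiers, each marking a captured RNA molecule), their levels per library total and their detection across cell types and nucleus-poor barcodes, Dox against Control, so these values are given as a description without p-values. The animals carried 3 transgenes: rtTA, which binds DNA when doxycycline (Dox) is present, with tet-on-Myc and tet-on-NICD, which place the growth regulator MYC and the active intracellular fragment of Notch under its control. Whole cochleae of mice 4 to 6 weeks old were cultured with Dox at 2 µg/ml or with sterile water for 4 days, and the dissociated sensory epithelium was captured on the 10x Genomics 3′ platform. There were 2 Dox libraries and 1 Control library, each from 4 pooled cultures, and both groups carried all 3 transgenes. The labels do not state which promoter drives rtTA. Without Dox-treated cultures that lacked the transgenes, effects of the drug and of the transgenes cannot be told apart.

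S100 proteins are small calcium-binding proteins with a pair of EF hands. They work mostly as dimers: calcium opens a hydrophobic face that docks onto a target such as an annexin, a myosin or a membrane scaffold. In the organ of Corti they serve as classical histological markers, S100A1 among them in supporting cells, the epithelial cells that hold and surround the sensory hair cells. S100A10 is the exception in the family, since it no longer needs calcium and stays bound to annexin A2.

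On chromosome 3 of GRCm38, S100a1 (positions 90511034 to 90514392, minus strand) and S100a13 (90514435 to 90524581, plus strand) are transcribed away from each other, with 42 bases between their annotated starts. S100a16 (90537254 to 90543151), S100a4 (90603771 to 90606045) and S100a6 (90612882 to 90624181) follow within the same cluster. S100a11 (93520488 to 93526287) and S100a10 (93555080 to 93564643) lie about 3006 and 3041 kb from the start of S100a1, all of these on the plus strand. S100a4 overlaps the annotated gene Gm42674, which had 0 UMIs, so reads in the overlap are of uncertain origin.

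Upstream sequence from RefSeq (GRCm38.p6) was found for 6 of the 7 genes, all but S100a10. The short stretch between S100a1 and S100a13 is shown because those 2 genes had the most alike pattern over cell classes, and the other 3 because S100a6 and S100a4 were called in macrophage-like cells and S100a11 in supporting cell-like cells. All are on the plus strand, 5′ to 3′.
S100a1 to S100a13, chr3:90514393-90514434, the whole stretch between the starts in capitals: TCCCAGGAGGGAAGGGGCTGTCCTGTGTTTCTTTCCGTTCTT
S100a6 upstream, chr3:90612644-90612881, capitals marking the RBPJ core TGGGAA on the opposite strand: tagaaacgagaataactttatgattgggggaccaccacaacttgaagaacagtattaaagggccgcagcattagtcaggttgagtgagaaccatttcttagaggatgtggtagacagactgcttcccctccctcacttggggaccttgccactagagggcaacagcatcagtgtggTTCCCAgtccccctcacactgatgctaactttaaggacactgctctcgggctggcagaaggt
S100a4 upstream, chr3:90603520-90603769, capitals marking the same core and a TATA box: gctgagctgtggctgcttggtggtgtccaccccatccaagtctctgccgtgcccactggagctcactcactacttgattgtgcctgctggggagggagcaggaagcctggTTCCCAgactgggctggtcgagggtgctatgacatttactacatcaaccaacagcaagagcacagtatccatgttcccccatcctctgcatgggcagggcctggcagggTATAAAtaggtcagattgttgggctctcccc
S100a11 upstream, chr3:93520246-93520487, capitals marking a MYC E-box and a pair of AP-1 motifs: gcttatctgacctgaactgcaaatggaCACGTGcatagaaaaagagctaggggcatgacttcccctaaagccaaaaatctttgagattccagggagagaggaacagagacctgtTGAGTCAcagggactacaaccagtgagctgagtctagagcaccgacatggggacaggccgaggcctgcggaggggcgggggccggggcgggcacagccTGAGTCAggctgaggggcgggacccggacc

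Each motif was searched on both strands in windows running from 250 bases before to 50 after a start. The E-box CACGTG, which MYC binds together with MAX, was in the windows of S100a11 and S100a6, where it lies past the stretch printed, and in 7.15% of all 32851 windows. TGGGAA, the core bound by the Notch effector RBPJ, was in the windows of S100a4 and S100a6 and in 1 of the 2 windows of S100a16, and in 25.6% of all windows. TATAAA was in that of S100a4 and in 13.6% of all, and TGANTCA, the AP-1 motif, in that of S100a11 and 1 of the 2 of S100a16, and in 7.81% of all. None of the 4 motifs was in the windows of S100a1 and S100a13. The motifs do not overlap in the stretches shown, and a match is a description of the letters only.

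**Figure D1:**
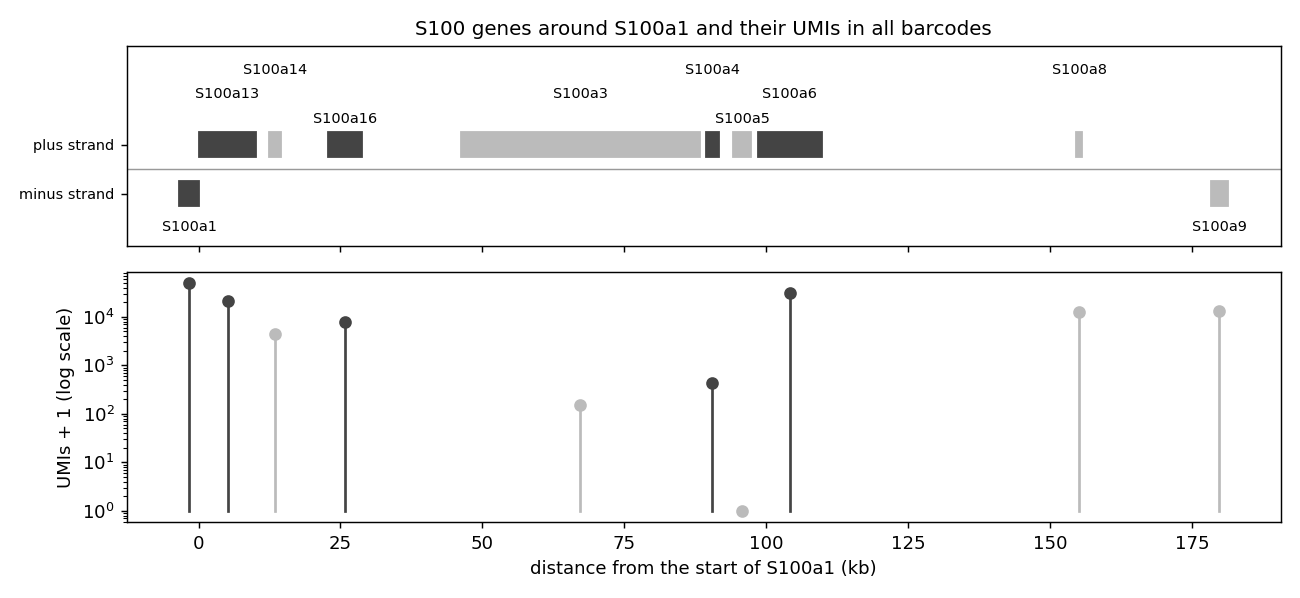
S100 genes within 180 kb of S100a1 (top, plus and minus strands; the 5 genes described here that lie in this cluster in dark grey, other S100 genes in light grey) and UMIs + 1 over all barcodes of the 3 libraries (bottom, log scale), against distance from the start of S100a1 in kb. S100a1 (49185 UMIs), S100a6 (31784) and S100a13 (21569) stand highest, while S100a4 (426) lies between them with few.

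The libraries held 788 (Dox 1), 1095 (Dox 2) and 512 (Control) barcodes with 20309102, 33385927 and 5436731 UMIs, of which 636, 997 and 363 were kept as cells. Control cells were shallower, with a median of 6887 UMIs against 16724.5 in Dox 1 and 27579 in Dox 2. Cell barcodes were shared: 68 between the Dox libraries, and 101 and 92 between Dox 1 or Dox 2 and Control. Among kept cells, 41 in Dox 1, 72 in Dox 2 and 80 in Control had a copy more than 10 times deeper in another library, with a median of 1.33%, 1.39% and 0.606% of that copy's UMIs. These copies made up few of the classes compared here: 1, 2 and 1 of the supporting cell-like cells, 0 of the glia-like cells, 4, 4 and 0 of the macrophage-like cells and 0, 0 and 3 of the nucleus-poor barcodes. Leaving them out changed the direction of none of the 7 genes in any comparison. Classes were clusters named from their leading markers, with every S100 gene kept out of the clustering. The labelled tissue is sensory epithelium, and Sox2, Gjb2, Gjb6 and Fabp7 led the supporting cell-like cluster, while other clusters carried markers of glia, macrophages, fibroblasts, pericytes and other epithelia. No cluster carried a hair cell name.

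S100a1 was high in the supporting cell-like cells of every library. Its share of all UMIs of the class (CPM, in UMIs per 1000000 UMIs, unscaled) was 3847 and 3509 in the Dox supporting cell-like cells (56 and 26 cells) and 6633 in the Control ones (23 cells), with 95% Poisson intervals of 3761 to 3935, 3371 to 3650 and 6320 to 6957. It was found in 92.9% and 100% of Dox and 95.7% of Control supporting cell-like cells, and in 91.8%, 100% and 95.2% after each cell was thinned to 1000 UMIs. Macrophage-like cells, which should lack it, gave 38.0%, 48.3% and 26.1%, or 10.5%, 12.5% and 0% after thinning, at 64.6 and 64.2 CPM in Dox and 44.8 CPM in Control. Median depths were 8584.5, 16384 and 6156 UMIs in supporting cell-like cells and 6991, 21458 and 7810 in macrophage-like cells, so the epithelial level stood far above that background in every library.

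S100a1 also ran high in 2 unnamed clusters and in the melanocyte-like cells of Control, and was low in glia, pericytes and macrophages. A cluster led by Bdh2, Aldoc and Alox15 had 2579 and 2101 CPM in the Dox libraries and 13176 in Control, where it held only 16 cells, 5 of them shallow copies. A cluster led by Epyc, Lum, Orm2 and Aqp4 had 2630 and 1989 CPM in Dox and 5703 in Control (13 cells). Sulcus- or interdental-like cells had 1072 and 763 CPM in Dox, with 3 cells in Control. Reissner membrane-like cells, the thin sheet that roofs the cochlear duct, had 395 and 479 CPM in Dox and 1787 in Control (16 cells). Glia-like cells stood at 149, 95.8 and 155 CPM and pericyte-like cells at 35.5, 25.3 and 171 CPM in Dox 1, Dox 2 and Control. Intermediate cell- or melanocyte-like cells, which are not epithelial, had 1243 CPM in Control, with S100a1 in all 14 cells, or 84.6% after thinning. They had 581 CPM in 3 cells of Dox 1, and Dox 2 had no such cells. Neuron-like cells had 92.6, 337 and 552 CPM in Dox 1, Dox 2 and Control (11, 10 and 6 cells). Another unnamed cluster, led by Eif6 and Epcam and shallow at a median of 957, 739 and 698.5 UMIs, had 1109, 1672 and 2132 CPM in Dox 1, Dox 2 and Control. Among classes with at least 10 cells the supporting cell-like class ranked first in both Dox libraries, and in both the intervals of the Bdh2 and Epyc clusters below it overlapped each other. In Control the Bdh2 cluster ranked first and supporting cell-like cells second.

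S100a13, the neighbour across the 42-base stretch, encodes a protein known for its part in the release of FGF1 and IL-1α, which lack a classical secretion signal. It had 2948 and 1617 CPM in Dox supporting cell-like cells and 3895 CPM in Control ones. The Epyc cluster had 1010 and 783 CPM in Dox and 2420 in Control, and the Bdh2 cluster had 912 and 704 CPM in Dox and 8415 in Control, above the supporting cell-like cells of that library. The Eif6 cluster had 478 and 1295 CPM in Dox and 769 in Control. Unlike S100a1, it was low in Reissner membrane-like cells, at 48.5 and 67.6 CPM in Dox and 88.1 CPM in Control, beside 72.5, 54.0 and 95.1 CPM in the macrophage-like cells of Dox 1, Dox 2 and Control. Over 29 sums of a class in a library, each of at least 20 cells, the Pearson correlation of log2(CPM + 10) between S100a1 and S100a13 was 0.893, and 16 of 10698 genes had a higher one with S100a1. The sums share libraries and the scaling to all UMIs of a class, so this is a description.

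**Figure D2:**
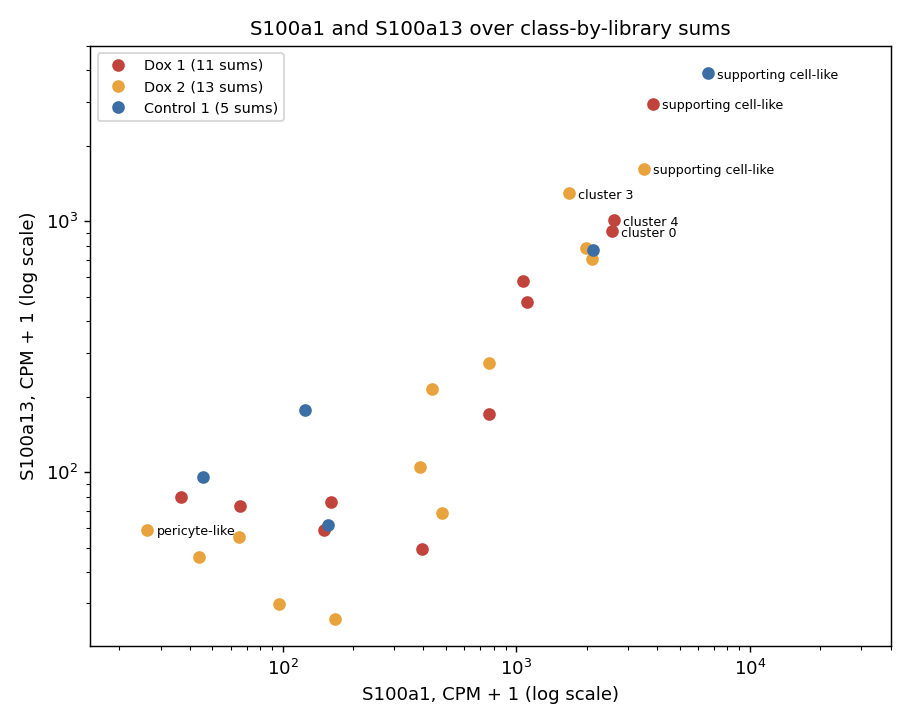
CPM + 1 of S100a13 against S100a1 (both log scales) in 29 sums of a cell class or cluster in 1 library, coloured by library. The supporting cell-like sums lie at the top right in all 3 libraries (S100a1 3847 and 3509 CPM in Dox, 6633 in Control). Cluster 0 is the one led by Bdh2, cluster 3 by Eif6 and cluster 4 by Epyc. The Reissner membrane-like sums of Dox 1 and Dox 2 lie low and to the right, with S100a1 at 395 and 479 CPM but S100a13 at 48.5 and 67.6 CPM.

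S100a6, calcyclin, which binds the ubiquitin ligase adaptor CACYBP, was high in supporting cell-like and glia-like cells, but not in these alone. In supporting cell-like cells it had 4229 CPM in Dox 1 but 1303 CPM in Dox 2, against 4293 CPM in Control, and 33.4%, 56.4% and 68.6% of these UMIs came from 3 cells. In glia-like cells it had 1171 and 826 CPM in Dox and 2216 in Control. The Eif6 cluster had 1051 and 1423 CPM in Dox and 866 in Control. Macrophage-like cells had 135 and 101 CPM in Dox but 1033 in Control. A small cluster led by Mt3 and Cryab had 3964 CPM in its 9 Control cells, with 1 and 2 cells in Dox. Below the glia-like level in each library were Reissner membrane-like cells (233 and 409 CPM in Dox, 897 in Control) and fibroblast-like cells (156 and 125 CPM in Dox, 504 in Control). The fibroblast-like class differed in makeup: 83 of 113 Control cells came from a cluster that gave 1 cell in each Dox library, and 9 of the 13 cells of Dox 1 were shallow copies. The neuron-like cells had 1 and 0 UMIs of S100a6 in Dox and 103 UMIs (336 CPM) in Control.

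S100a4, a regulator of cell motility through non-muscle myosin, was the rarest of the 7, with 97 and 107 UMIs in the Dox libraries and 222 in Control. Glia-like cells held 69, 32 and 51 of these in Dox 1, Dox 2 and Control, or 85.0, 57.9 and 172 CPM, and macrophage-like cells held 2, 14 and 155. The Bdh2 cluster had 0 UMIs in all 3 libraries, and supporting cell-like cells had 5.56 and 5.74 CPM in Dox and 15.8 CPM in Control. The correlation of S100a4 with S100a1 over the 29 sums was -0.34.

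S100a10, the annexin A2 partner also called p11, which carries channels and receptors to the membrane, was spread over many classes without a lead in the epithelium. Its highest sums were neuron-like cells of the Dox libraries, at 1164 CPM (11 cells) and 1447 CPM (10 cells), against 493 CPM in 6 Control cells. In 3 cells of each library lay 86.1% and 85.0% of those UMIs in Dox and 84.8% in Control, so the level rests on a handful of cells. Reissner membrane-like cells had 367 and 412 CPM in Dox and 708 in Control. Supporting cell-like cells had 341 and 248 CPM in Dox and 579 CPM in Control.

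S100a11, which pairs with annexin A1 at membranes and in keratinocyte growth control, was broad as well. It had 474 and 648 CPM in Dox and 1664 in Control Reissner membrane-like cells, 489, 609 and 1366 CPM in the Bdh2 cluster, and 706, 264 and 745 CPM in fibroblast-like cells, whose makeup differed as described for S100a6. Glia-like cells had 264 and 139 CPM in Dox and 165 CPM in Control. The neuron-like cells had 0 and 1 UMIs in Dox and 26 UMIs (84.9 CPM) in Control.

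S100a16 was low and varied over the epithelia, at 281 and 219 CPM in Dox sulcus- or interdental-like cells and 138 and 174 CPM in the Dox Epyc cluster. It had 315 and 139 CPM in Dox and 169 CPM in Control supporting cell-like cells, and 204, 220 and 219 CPM in Reissner membrane-like cells. Glia-like cells had 94.9, 68.7 and 165 CPM. Macrophage-like cells had 0 UMIs in Dox 1 and Control and 9 in Dox 2, all in 1 cell, and a count of 0 allowed up to 3 UMIs there.

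**Figure D3:**
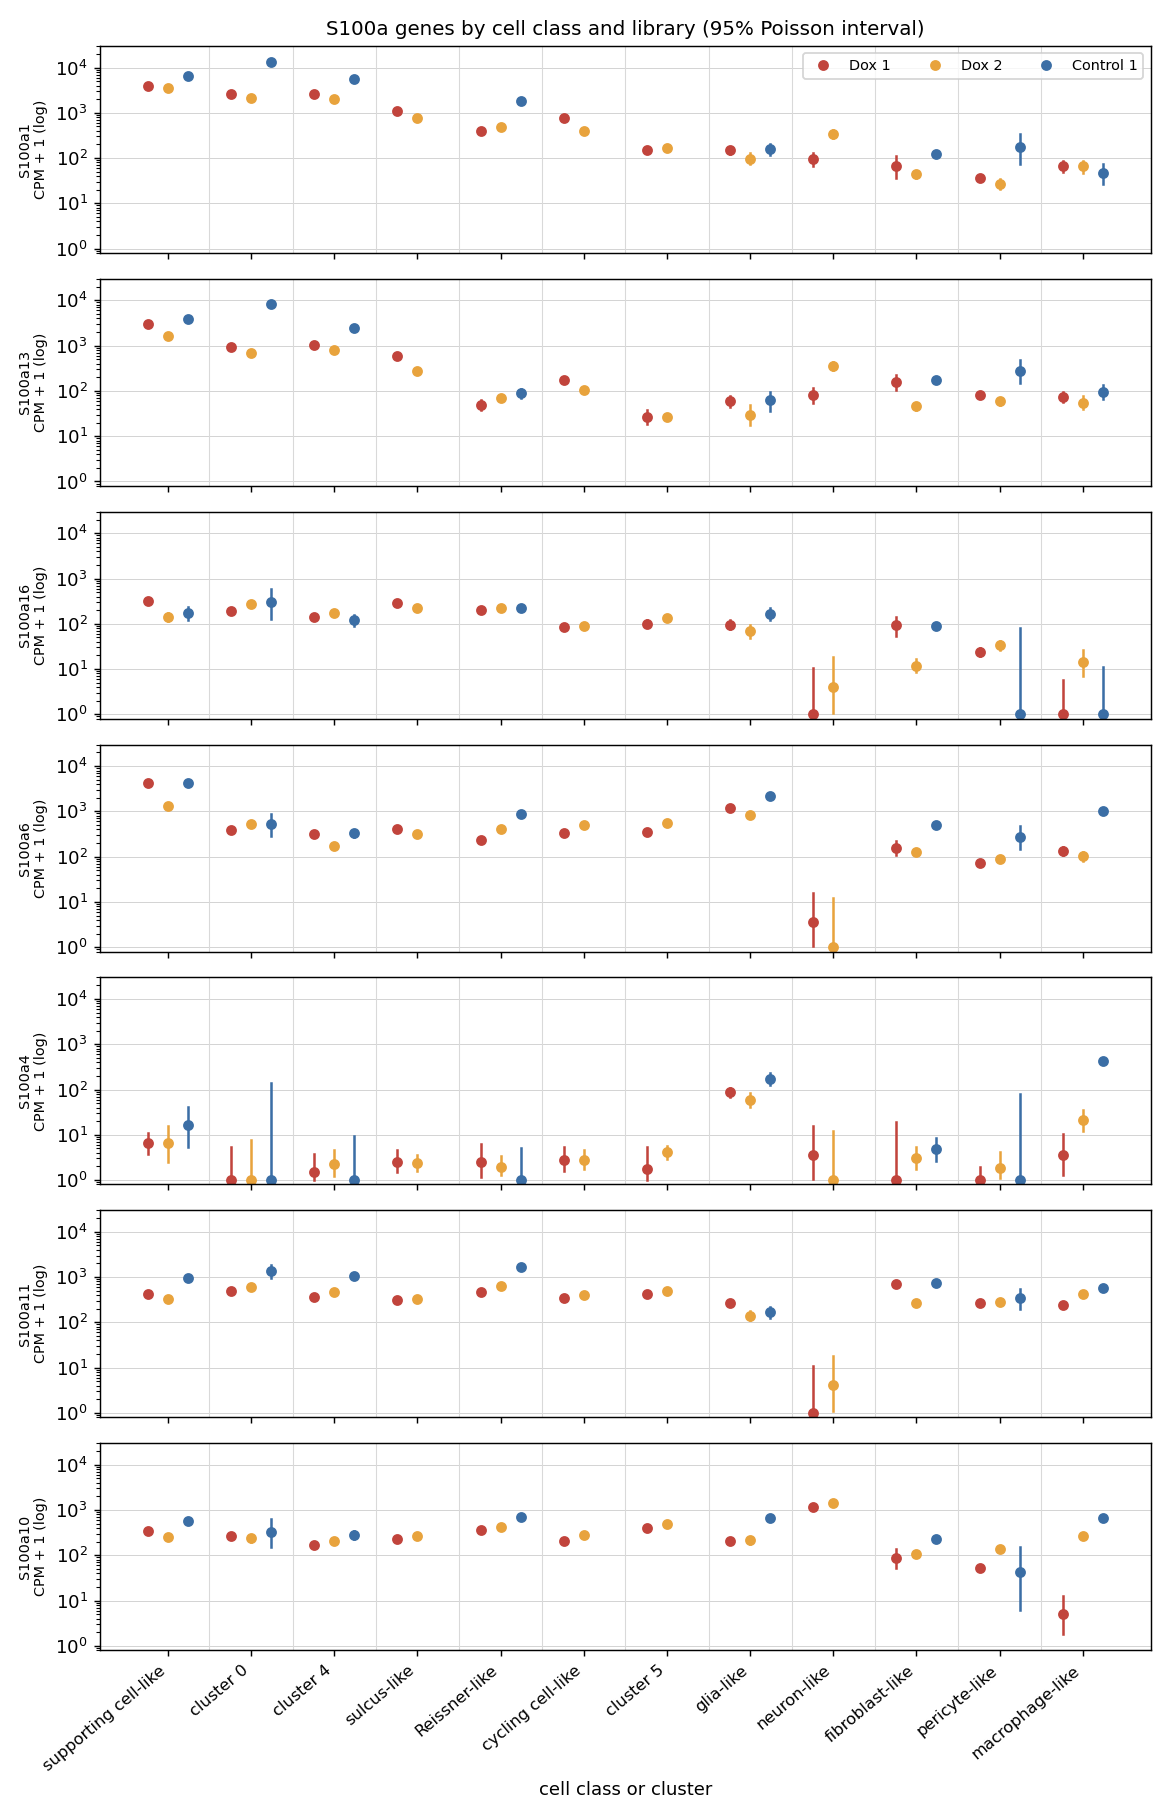
CPM + 1 (log scale, unscaled) of each gene by cell class or unnamed cluster, with a point for Dox 1, Dox 2 and Control where the library has at least 10 cells, and bars for the 95% Poisson interval of the UMI sum. S100a1 and S100a13 are higher in supporting cell-like cells than in pericyte- and macrophage-like cells in every library, without a steady slope between them. In Control the Bdh2 cluster lies above supporting cell-like cells for both genes (13176 and 8415 CPM), and S100a13 is lowest of these classes in glia-like cells. S100a4 is highest in Control macrophage-like cells (434 CPM) and in glia-like cells (85.0 and 57.9 CPM in Dox, 172 in Control). S100a11 and S100a10 are close to level over the epithelia.

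The question of how Dox cultures differed from Control was asked within 3 classes that had at least 20 cells in each library, using CPM scaled by the TMM method and a fit over all genes in which the lone Control library is assumed to vary like the Dox libraries. Scaling to total counts instead would lower the log2 difference of the median gene by 0.49 in supporting cell-like cells and by 0.24 in glia-like cells. In supporting cell-like cells, 1 of the 7 genes was called, lower in Dox, where 3.18% of all 8294 genes tested were called lower, 6.51% higher and 9.69% in either direction at an adjusted p of at most 0.05. S100a11 had 498 and 370 TMM-scaled CPM in Dox and 779 in Control, a log2 difference of -0.84 ± 0.24 (SE). Both Dox values lay below Control, but the call was lost with DESeq2 (-0.86), without nucleus-poor barcodes (-0.87), with the S100 genes kept in the clustering (-0.78), at a resolution of 0.5 (-0.84) and after thinning (-0.96).

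S100a1 kept most of its level in Dox supporting cell-like cells. It had 4506 and 3896 TMM-scaled CPM in Dox and 5400 in Control, a log2 difference of -0.36 ± 0.19, without a call unless scaled to total counts (-0.85) or thinned (-0.78). S100a13 had 3452 and 1796 CPM in Dox and 3171 in Control (log2 difference -0.27 ± 0.28), so Control lay between the Dox libraries. The same held for S100a6, at 4953 and 1447 CPM in Dox and 3495 CPM in Control (log2 difference -0.12 ± 0.42), and its sign turned to 0.46 without Dox 2. S100a10 had 399 and 276 CPM in Dox and 471 CPM in Control, a log2 difference of -0.47 ± 0.27, which was called with total scaling (-0.96). S100a16 was the exception in sign, at 369 and 155 CPM in Dox and 138 CPM in Control (0.96 ± 0.42), with most of the gap in Dox 1, and called without the count filter (0.98) and with a stricter cell filter (1.14). S100a4 was close to the floor in all 3 libraries.

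The median log2 difference of the 7 was -0.36 in supporting cell-like cells, beside 0.03 over all genes tested. Markers listed for neighbouring epithelia differed between the groups in this class. The lists are not separate: Epyc is on both, and Ceacam16, listed for the sulcus, was a leading gene of the supporting cell-like cluster. The 11 sulcus or interdental markers summed to 2258 and 1676 unscaled CPM in Dox and 8114 CPM in Control, with 6, 9 and 5 of them detected, and Gabrp and Slc26a4 were at 0 in all 3 libraries. The 19 supporting cell markers summed to 2864 and 3197 CPM in Dox and 5120 CPM in Control, with 19, 19 and 16 detected. These markers did not all follow that order. Sox2 had 256 and 212 CPM in Dox and 161 CPM in Control, while Gjb6 had 98.6 and 105 CPM in Dox and 291 CPM in Control. The part of both lists in the values above was not tested.

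In glia-like cells S100a10 stood apart. It had 231 and 221 TMM-scaled CPM in Dox and 615 in Control, a log2 difference of -1.44 ± 0.28. It was the 1 gene of the 7 called there, lower in Dox, where 3.69% of 7618 genes were called lower, 3.36% higher and 7.05% in either direction, and the call was lost after thinning (-1.91). Both Dox libraries were close to each other and well below Control. S100a6 had 1315 and 863 CPM in Dox and 2038 in Control (-0.90 ± 0.35), S100a4 had 95.5 and 60.4 CPM in Dox and 158 in Control (-0.99 ± 0.34), and S100a16 had 107 and 71.7 CPM in Dox and 152 CPM in Control (-0.74 ± 0.34). These 3 lay below Control in both Dox libraries without a call, and total scaling made each a call (-1.15, -1.24 and -0.995). Few cells carried the S100a4 sums: 3 cells held 73.9% and 59.4% of its UMIs in Dox and 78.4% in Control. For S100a10, 3 cells held 38.3% and 38.5% in Dox and 50.3% in Control. S100a11 had 296 and 145 CPM in Dox and 152 CPM in Control (0.56 ± 0.39), with the Dox libraries on either side. The median of the 7 was -0.74, beside 0.02 over all genes. The 16 markers of Schwann and satellite glia were all detected in each library and summed to 2290 and 3325 unscaled CPM in Dox and 6972 CPM in Control, and their part in these values was not tested.

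In macrophage-like cells, S100a4 and S100a6 were called lower in Dox. S100a4 had 2.74 and 21.1 TMM-scaled CPM in Dox and 431 CPM in Control, a log2 difference of -5.18 ± 0.70. S100a6 had 140 and 104 CPM in Dox and 1025 in Control, a log2 difference of -3.07 ± 0.54. Of 7747 genes, 0.323% were called lower, 0.245% higher and 0.568% in either direction, and S100a16 did not pass the filter on low counts. These sums rested on few cells: 3 Control cells held 81.9% of the 155 S100a4 UMIs and 58.0% of the 369 S100a6 UMIs. In Dox 1, S100a6 was found in 3 of 50 cells, and the 2 S100a4 UMIs lay in shallow copies. The S100a4 call was lost with DESeq2 (-5.19) and the S100a6 call after thinning (-3.70), and S100a4 stood at -7.20 without Dox 2 and at -4.33 without Dox 1.

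The macrophage-like class mixed C1q-positive macrophages with cells carrying neutrophil markers, which summed to 7303 and 4338 unscaled CPM in Dox and 2983 CPM in Control (10, 11 and 9 of 11 markers detected, with Elane at 0 in Dox 1 and Camp and Ltf at 0 in Control). The markers did not all follow that order: Retnlg had 673 and 59.9 CPM in Dox and 1450 CPM in Control. Their part in the values above was not tested. Within the cells that had a C1q UMI (42, 12 and 14 cells), S100a4 had 0 and 12 UMIs in Dox and 8 in Control, and S100a6 had 1 and 57 UMIs in Dox and 19 in Control. The log2 differences there were -2.82 for S100a4 and -1.71 for S100a6, and neither was called. Most S100a4 UMIs of the Control class, 147 of 155, came from the 9 cells without a C1q UMI, which had a median of 33842 UMIs against 1737 in the 14 with one. Of the 102 S100a6 UMIs in Dox 1, 101 came from 2 of the 8 cells without a C1q UMI. With shallow copies left out, 4 of those 8 cells remained, and 25% of the 4 held 100 UMIs. S100a10 differed between the Dox libraries, at 4.10 and 273 TMM-scaled CPM against 656 CPM in Control (-2.25 ± 1.03), and was called lower under 5 of the alternatives. S100a11 had 245 and 436 CPM in Dox and 572 in Control (-0.75 ± 0.57), but 91.6, 226 and 79.8 unscaled CPM in the C1q-positive cells.

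Over all kept cells, only S100a4 was called, lower in Dox, at 5.13 and 3.49 TMM-scaled CPM against 36.6 CPM in Control (-3.10 ± 0.29), where 7.82% of 15426 genes were called lower, 9.35% higher and 17.2% in either direction. The makeup of the libraries differed, with 155 of the 222 Control UMIs of S100a4 in macrophage-like cells. S100a11 had 361 and 448 CPM in Dox and 712 in Control (-0.82 ± 0.18; called with DESeq2 at -0.80 and with total scaling at -1.11), and S100a16 had 151 and 147 CPM in Dox and 105 CPM in Control (0.51 ± 0.13). In such sums, fewer cells of a type and less RNA per cell cannot be told apart.

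**Figure D4:**
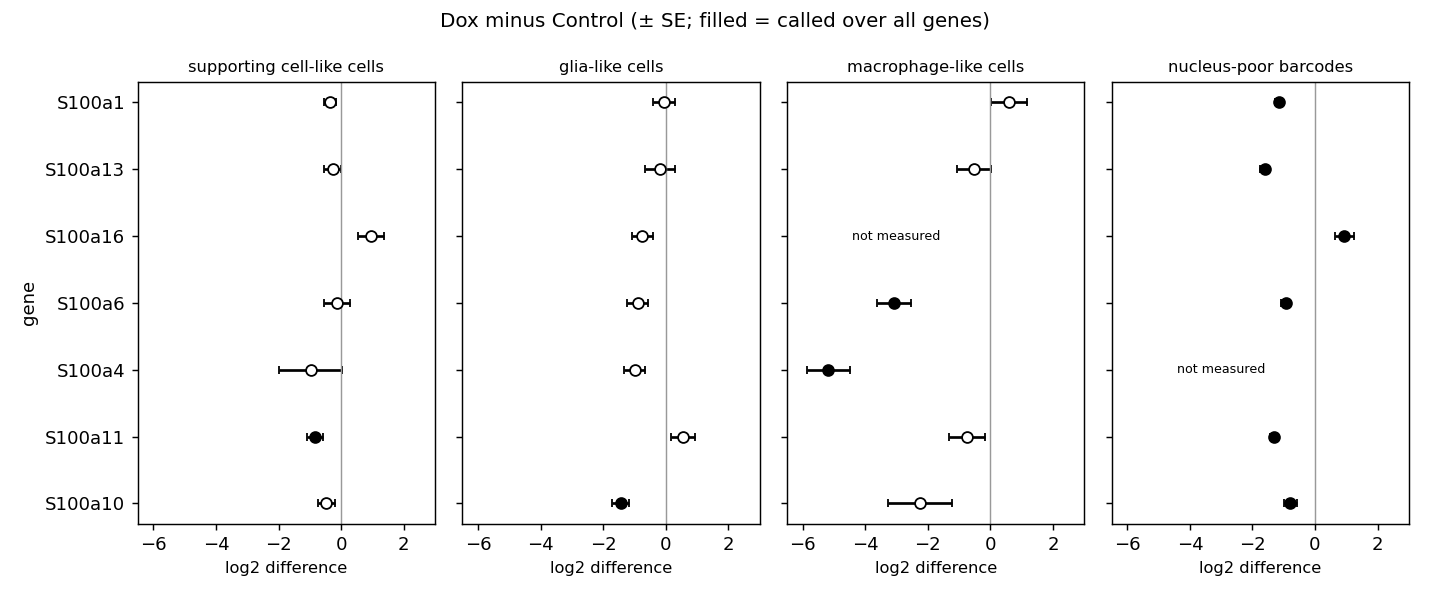
Log2 difference of Dox minus Control (x axis) for each gene (y axis) in 3 cell classes and in nucleus-poor barcodes, with bars for the standard error of the fit. Filled points were called in the fit over all genes. S100a4 (-5.18) and S100a6 (-3.07) in macrophage-like cells lie furthest left, and S100a16 lies right of 0 in supporting cell-like cells and nucleus-poor barcodes but left of it in glia-like cells.

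Nucleus-poor barcodes carried higher fitted levels of 6 of the 7 genes than other kept cells. These are kept barcodes with less than 0.1% of their UMIs from Malat1, an RNA held in the nucleus, and there were 202 (31.8% of kept cells) and 160 (16%) in Dox and 58 (16%) in Control. S100a1 had 3220, 2102 and 6267 unscaled CPM in the nucleus-poor barcodes of Dox 1, Dox 2 and Control, against 910, 506 and 1376 CPM in the other kept cells of the same libraries. S100a13 had 1389, 712 and 3403 CPM in nucleus-poor barcodes, against 510.5, 181 and 504 CPM in the others. The pattern held in every library for both genes. Unscaled levels did not all follow: S100a10 had 318 CPM in the nucleus-poor barcodes of Dox 2 against 324 CPM in its other cells, and S100a16 had 118 CPM in those of Control against 120 CPM.

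Fitted within libraries, S100a1 was 2.34 ± 0.16 and S100a13 2.37 ± 0.18 higher on the log2 scale in nucleus-poor barcodes than in other kept cells. S100a6 (1.46 ± 0.16), S100a11 (1.14 ± 0.16), S100a16 (0.86 ± 0.17) and S100a10 (0.55 ± 0.16) were also higher, while S100a4 was not called (-0.60 ± 0.51). That made 6 of 7 called higher, where 16.1% of 11512 genes were called higher, 19.3% lower and 35.4% in either direction. The S100a10 and S100a16 calls were lost after thinning (0.59 and 0.81) and without either Dox library, and that of S100a10 with total scaling (0.23). The median of the 7 was 1.14, beside -0.08 over all genes, and scaling to total counts would lower the median gene by 0.32.

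The nucleus-poor barcodes came largely from the epithelium. The Bdh2 cluster gave 85, 73 and 10 of them in Dox 1, Dox 2 and Control, supporting cell-like cells 32, 12 and 12, and cycling cells 32, 49 and 1. Within supporting cell-like cells alone, nucleus-poor barcodes had 6608, 5849 and 12047 unscaled CPM of S100a1 in Dox 1, Dox 2 and Control, against 3419, 2933 and 5723 CPM in the other cells of the class. The log2 difference there was 1.01 for S100a1, 0.66 for S100a13, 0.74 for S100a6 and 1.12 for S100a11, and of the 6 genes called over all cells only S100a11 was called in this smaller fit. The nucleus-poor barcodes were also shallower, with a median of 4545.5, 4272 and 1628.5 UMIs against 32826.5, 32463 and 11588.

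**Figure D5:**
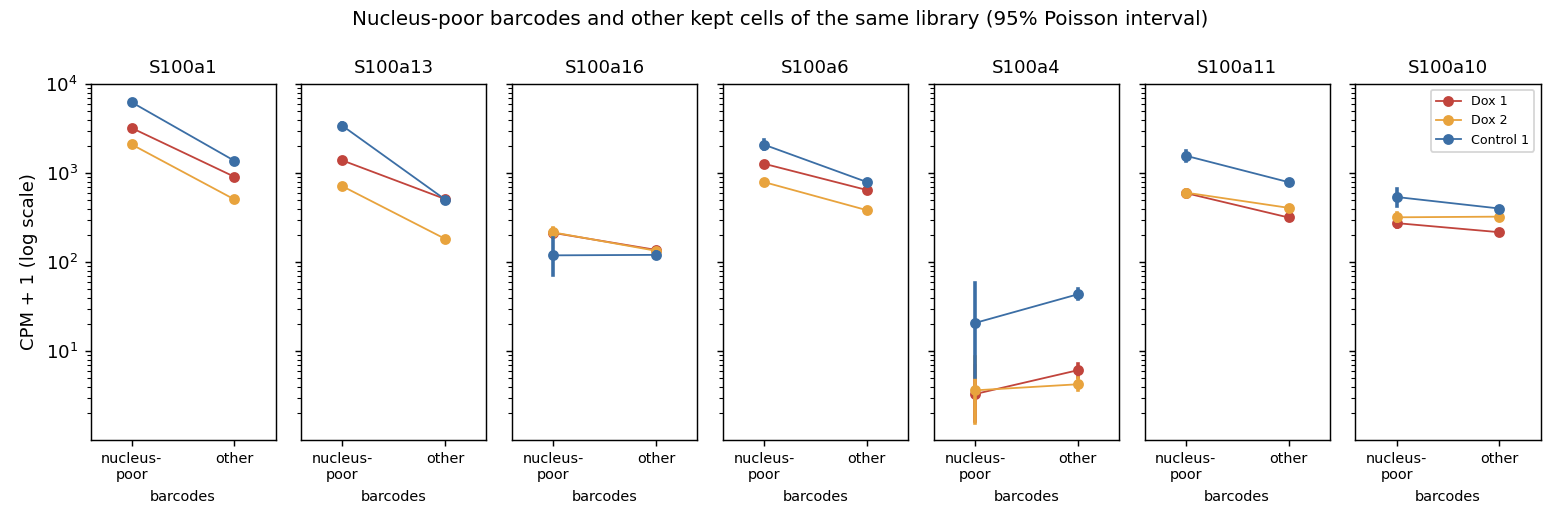
CPM + 1 (log scale, unscaled) of each gene in nucleus-poor barcodes (left) and other kept cells (right) of the same library, joined by a line per library, with 95% Poisson intervals. All 3 lines of S100a1, S100a13, S100a6 and S100a11 slope down to the right, and the Control nucleus-poor values of S100a1 (6267 CPM) and S100a13 (3403 CPM) lie above both Dox libraries.

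Within nucleus-poor barcodes, 5 of the 6 genes measured were called lower in Dox and 1 higher, where 6.71% of 8718 genes were called lower, 7.09% higher and 13.8% in either direction. S100a13 had 1441 and 731 TMM-scaled CPM in Dox and 3328 in Control (-1.61 ± 0.15), and S100a1 had 3340 and 2161 CPM in Dox and 6130 in Control (-1.16 ± 0.11). S100a11 had 619 and 621 CPM in Dox and 1536 in Control (-1.31 ± 0.14). S100a6 had 1323 and 815 CPM in Dox and 2043 CPM in Control (-0.93 ± 0.14), and S100a10 had 284 and 327 CPM in Dox and 527 CPM in Control (-0.79 ± 0.20). S100a16 went the other way, at 220 and 221 CPM in Dox and 116 CPM in Control (0.93 ± 0.30). Both Dox values lay on the same side of Control for all 6. S100a4, with 4 and 3 UMIs in Dox and 3 in Control, did not pass the filter on low counts.

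The mix of cell classes among these barcodes differed between the groups, since the Bdh2 cluster was 42.1% and 45.6% of them in Dox and 17.2% in Control, and supporting cell-like cells were 15.8% and 7.50% in Dox and 20.7% in Control. Cycling cells were 15.8% and 30.6% in Dox and 1.72% in Control. A cluster led by Mt3 and Cryab, with 3964 CPM of S100a6 in its 9 Control cells, was 0% and 0.625% in Dox and 15.5% in Control, and fibroblast-like cells were 0.495% and 0% in Dox and 10.3% in Control. The part of this mix in the differences was not tested. With DESeq2, S100a11 alone of these 6 kept its call, as it did with the Malat1 limit doubled, while S100a1 and S100a13 stood at -1.22 and -1.68 with DESeq2 and at -1.33 and -1.78 with that limit. At the limit divided by 2, S100a6, S100a10 and S100a16 lost their calls, and after thinning S100a6, S100a11 and S100a16. The median of the 6 was -1.04, beside 0.24 over all genes.

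Annexins, the calcium-dependent membrane binders that several S100 proteins dock onto, had negative medians in all Dox fits. For comparison, 3.18% of all genes tested were called lower in supporting cell-like cells and 3.69% in glia-like cells. That share was 6.71% in nucleus-poor barcodes and 7.82% over all cells. In supporting cell-like cells all 5 of the 8 that could be measured were lower, and Anxa5 and Anxa7 fell. Anxa5 had 2061 and 2054 TMM-scaled CPM in Dox and 5900 CPM in Control, a log2 difference of -1.52 ± 0.18 (edgeR quasi-likelihood adjusted p = 3.33e-05). Anxa7 changed by -1.55 ± 0.36 (edgeR adjusted p = 0.0113). In glia-like cells 3 of 5 fell, led by Anxa2, the partner of S100a10, at 83.1 and 132 CPM in Dox and 541 CPM in Control (-2.35 ± 0.30, edgeR adjusted p = 9.76e-05). Anxa7 (-1.57, edgeR adjusted p = 0.00669) and Anxa5 (-1.12, edgeR adjusted p = 0.0195) fell with it, so both S100a10 and Anxa2 were lower in Dox glia. In nucleus-poor barcodes 2 of 8 fell, Anxa5 (-1.57 ± 0.12, edgeR adjusted p = 4.84e-19) and Anxa1 (-2.56 ± 0.49, edgeR adjusted p = 3.35e-05), and over all cells Anxa2 (-0.81, edgeR adjusted p = 0.0342) and Anxa7 (-0.94, edgeR adjusted p = 0.0361) of 8. No annexin rose in Dox in these comparisons, and the list's median was -1.52 in supporting cell-like cells and -1.12 in glia-like cells, beside 0.03 and 0.02 over all genes. With total count scaling, DESeq2's size factors and each Dox library left out, all 5 kept a lower value in glia-like cells. In supporting cell-like cells 0 of 5 were called without nucleus-poor barcodes, 1 with DESeq2 and 4 with total scaling.

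Other binding partners moved in both directions. Cacybp, which encodes the S100A6 partner, rose over all cells (287 and 345 TMM-scaled CPM in Dox, 133 CPM in Control, 1.24 ± 0.18, edgeR adjusted p = 0.0275) and in supporting cell-like cells (328 and 349 CPM in Dox, 170 CPM in Control, 0.99 ± 0.27, edgeR adjusted p = 0.0303). Ahnak, the large scaffold bound by S100A10 with annexin A2, fell in glia-like cells (288 and 396 CPM in Dox, 881 in Control, -1.37 ± 0.30, edgeR adjusted p = 0.00863). Over all cells 3 of 14 partners rose, among them Trp53, encoding p53 (0.92 ± 0.17, edgeR adjusted p = 0.0367), and 2 fell, Sdc4, a heparan sulfate proteoglycan (-1.30 ± 0.12, edgeR adjusted p = 0.0207), and Ahnak (-1.98 ± 0.33, edgeR adjusted p = 0.0331). In nucleus-poor barcodes Sdc4 and Ahnak fell and none of 10 rose. Of all genes tested over all cells, 9.35% were called higher and 7.82% lower, and in nucleus-poor barcodes 7.09% and 6.71%. The median of the list was 0.00 over all cells and in supporting cell-like cells, 0.16 in glia-like cells, 0.17 in macrophage-like cells and 0.11 in nucleus-poor barcodes.

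Among the other S100 genes, S100b and S100a14 changed in opposite directions. S100b, the classical glial S100 gene, fell in glia-like cells to 18.0 and 18.9 TMM-scaled CPM in Dox, against 297 CPM in Control, a log2 difference of -4.00 ± 0.34 (edgeR adjusted p = 8.44e-07). S100a14, which lies between S100a13 and S100a16, rose in supporting cell-like cells, with 326 and 94.0 CPM in Dox and 6.41 CPM in Control (edgeR adjusted p = 0.00225), where the Control sum was 2 UMIs. It also rose in nucleus-poor barcodes (120 and 131 CPM in Dox, 19.3 CPM in Control, edgeR adjusted p = 0.000115) and over all cells (98.5 and 78.0 CPM in Dox, 18.3 CPM in Control, edgeR adjusted p = 0.0214). S100a8 and S100a9, the neutrophil pair, also rose in nucleus-poor barcodes. S100a8 had 79.0 and 71.0 CPM in Dox (edgeR adjusted p = 4.64e-05) and S100a9 had 105 and 88.0 CPM in Dox (edgeR adjusted p = 3.16e-06), and both had 0 UMIs in Control, whose sum was 152224 UMIs. Among 9 other EF-hand genes measured over all cells, none rose, and those that fell included Capns1, the small calpain subunit (-0.92, edgeR adjusted p = 0.0272), and Calm2, a calcium sensor gene (-0.57, edgeR adjusted p = 0.0478). Of all genes tested over all cells, 9.35% were called higher and 7.82% lower. In macrophage-like cells 0 of 25 measured genes of the 4 lists were called by edgeR or DESeq2, where edgeR called 0.568% of all genes. By edgeR, 2 of the 25 had an unadjusted p under 0.05, both lower in Dox, and by DESeq2 0 had.

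In nucleus-poor barcodes none of 6 EF-hand genes rose in Dox, and those that fell included Calm3 (-1.17 ± 0.22, edgeR adjusted p = 3.28e-05) and Capns1 (-1.20 ± 0.24, edgeR adjusted p = 6.47e-05). Of all genes tested there, 7.09% were called higher and 6.71% lower.

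Between nucleus-poor barcodes and other kept cells of the same library, 16.1% of all 11512 genes were called higher, 19.3% lower and 35.4% in either direction. Of 8 annexins, 3 were higher in the nucleus-poor barcodes and 2 lower, Anxa1 (-0.93 ± 0.22, edgeR adjusted p = 0.00137) among them. Anxa5 was 1.93 ± 0.17 higher on the log2 scale (edgeR adjusted p = 1.01e-10), Anxa2 0.85 ± 0.16 (edgeR adjusted p = 7.94e-05) and Anxa4 0.78 ± 0.20 (edgeR adjusted p = 0.00225). Of 11 other partners 3 were higher and 3 lower, with Sugt1, a co-chaperone adaptor, at 0.97 ± 0.16 (edgeR adjusted p = 1.79e-05) and Ahnak at -1.35 ± 0.23 (edgeR adjusted p = 2.64e-05). S100a8 and S100a9 were lower (-1.62 ± 0.26 and -1.37 ± 0.28) and S100a14 was higher (0.88 ± 0.18), so the 4 other S100 genes measured did not share 1 direction.

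Over the 29 sums, the genes whose pattern was most like that of S100a1 were Fam107a (Pearson 0.943), Skp1a (0.940) and Fbxo2 (0.938). For S100a13 they were Tmprss6 (0.925), Gjb2 (0.911) and Snx22 (0.910), of which Gjb2 encodes connexin 26 and is a supporting cell marker used to name the class. S100a4 was most like Adssl1 (0.883), S100a16 like Agpat3 (0.860), S100a11 like Borcs8 (0.816) and S100a6 like Cdc14a (0.809). S100a10 had no close match, with Sf3b6 (0.672) the nearest. Between the 7 genes, the pairs next after S100a1 and S100a13 were S100a1 with S100a16 (0.720), S100a1 with S100a6 (0.530) and S100a6 with S100a10 (0.528), all as descriptions over sums that share libraries.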

How the data were processed

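Epithelium dissociated with trypsin went into 10x Genomics 3′ libraries, per the labels' protocols. Filtered UMI count matrices, with at least 500 UMIs a barcode, were deposited by the authors. The submitters' processing notes list Cell Ranger 5.0, STAR, Seurat 3.2.2 and mm10 (GRCm38), while the matrix headers name software version 3.1.0. No source used here states whether introns were counted, which would add nuclear RNA.

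Kept barcodes had 200 genes or more and mitochondrial UMIs of 20% or less. Normalised log counts (10000 UMIs a cell) of 1992 variable genes, none an S100 gene, gave 30 components for Leiden clusters (resolution 1, 15 neighbours) in Python 3.11.15 with scanpy 1.11.5, igraph 0.11.9 and leidenalg 0.10.2. A name required at least 3 markers of 1 type among a cluster's 25 leading genes and no other type with more in its top 10. No doublet caller was run.

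UMI counts were summed per library and class and tested with edgeR 4.0.16 in R 4.3.3 (quasi-likelihood F test, TMM scaling, filterByExpr), with Benjamini-Hochberg adjustment over all genes and a threshold of 0.05. The summed depth was 1977268 and 696864 UMIs in Dox against 253891 in Control in the supporting class, 811525 and 553077 against 297333 in glia, and 758155 and 684884 against 357357 in macrophages. The labels describe the libraries as pooled cultures and no more. In the Dox and Control fits, p-values therefore rest only on how far 2 Dox libraries lie apart, with 1 residual degree of freedom. In the fit of nucleus-poor barcodes against other cells, library was a term. Its p-values rest on how the gap between the 2 sums of a library varies over the 3 libraries. Either spread may be technical. Standard errors come from the F statistic. Since edgeR shares information on spread between genes, p-values and standard errors do not measure the spread of each gene alone. In nucleus-poor barcodes, S100a13 had 1441 and 731 TMM-scaled CPM in Dox, with a standard error of 0.15. S100a16 had 220 and 221 CPM in Dox there, with a standard error of 0.30. Poisson and Clopper-Pearson intervals (95%) cover counting error only. The fit was also run on simulated counts that had the same spread for every gene and both groups. That run cannot show whether the lone Control library varies like the Dox libraries. The genes described and all lists were chosen with earlier results of these data known. Named beyond them are up to 4 called genes per list and comparison (1 such gene is not reported here), and the 3 genes most alike over sums of at least 20 cells and 50000 UMIs, with a pseudocount of 10 CPM. Positions are from GENCODE M21, matched by gene identifier. Alternatives were DESeq2 1.42.0, its size factors, total count scaling, no count filter, other resolutions, thinning to 1000 UMIs, other cell filters and Malat1 limits, and leaving out libraries. Those added after seeing the data include leaving out shallow copies.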

Additional observations from a re-analysis of the deposited data

Results flagged for a closer look

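S100a16 moved in opposite directions in supporting cell-like and glia-like cells. Its log2 difference from Control (TMM-scaled CPM + 0.5) was 1.42 in Dox 1 and 0.16 in Dox 2 in supporting cell-like cells, against -0.51 and -1.07 in glia-like cells. S100a1 did the same in supporting cell-like cells (-0.26 in Dox 1 and -0.47 in Dox 2) and macrophage-like cells (0.59 and 0.57), where its level was at background. Neither difference between classes was tested.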

How the results depend on the processing

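No paired analysis was possible because Control has 1 library, so the groups share fewer than 2 replicate numbers. The cause of the changes below was not tested. Depth limited the thinned fits, in which some of the 7 genes no longer passed the count filter, so no median is given. Clustering each library alone named no Control supporting cell-like cell and gave no value for that class. A Dox library left out leaves no residual degrees of freedom in the Dox and Control fits, so those are values without a test.

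Signs turned as follows. Over all cells, leaving out a Dox library gave log2 differences of -0.71 to 0.015 for S100a6, -0.61 to 0.032 for S100a10 and -1.20 to 0.26 for S100a13. In supporting cell-like cells, S100a6 stood at 0.0034 with S100 genes kept in the clustering, 0.12 after thinning, 0.045 with the stricter cell filter, 0.18 with cells weighted equally and -1.29 to 0.46 with a library left out, and S100a13 at -0.84 to 0.083. In glia-like cells, S100a1 stood at 0.0022 when each library was clustered alone and at -0.50 to 0.23 with a library left out, S100a11 at -0.054 to 0.96 and S100a13 at -0.87 to 0.22. In macrophage-like cells, S100a11 stood at 1.16 in C1q-positive cells and at 0.033 with cells weighted equally. Between nucleus-poor and other cells, S100a4 stood at 0.035 with the Malat1 limit doubled.

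Counts of called genes moved by more than 1.5 times. Over all cells, 2650 became 1124 after thinning and 5143 without the count filter. In supporting cell-like cells, 804 became 248 with DESeq2, 100 after thinning, 1 without nucleus-poor barcodes and 434 at a resolution of 0.5. In glia-like cells, 537 became 176 with DESeq2, 819 without cells under 3000 UMIs, 122 after thinning, 832 with each library clustered alone and 890 with total scaling. In macrophage-like cells, 44 became 25 with DESeq2, 26 with its size factors, 23 after thinning, 184 without the count filter, 172 without nucleus-poor barcodes, 87 in C1q-positive cells, 152 at a resolution of 2, 163 without shallow copies, 148 with the stricter cell filter and 157 with total scaling. In nucleus-poor barcodes, 1203 became 283 with the Malat1 limit doubled, 247 with DESeq2, 326 after thinning and 561 with the limit divided by 2. Between nucleus-poor and other cells, 4075 became 1920 with DESeq2, 700 after thinning, 291 within supporting cell-like cells and 965 to 5233 with a library left out.

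The median of the 7 moved to -0.85 in supporting cell-like cells with total scaling, to -0.70 in macrophage-like cells weighted equally, to -1.41 to -0.95 in nucleus-poor barcodes with a library left out, and to 0.81 between nucleus-poor and other cells with total scaling. Called partners and other S100 and EF-hand genes, 5 in supporting cell-like cells, became 2 with DESeq2, 1 after thinning, 0 without nucleus-poor barcodes, 2 at a resolution of 0.5, 11 with the stricter filter and 9 with total scaling. In glia-like cells, 5 became 3 with DESeq2, 8 without cells under 3000 UMIs, 1 after thinning and 8 with the stricter filter. In macrophage-like cells, 0 became 2 in C1q-positive cells and at a resolution of 2, and 1 with each library clustered alone, without the count filter, without nucleus-poor barcodes, without shallow copies, with the stricter filter and with total scaling. In nucleus-poor barcodes, 10 became 4 with the limit doubled, 3 with DESeq2 and 6 after thinning. Of 523 values of the 7 genes recomputed in all, 413 were counted as the same. With an adjusted p, this meant the same direction and side of the threshold. Without one, it meant the same direction and a move of less than the standard error of the main fit. Another 33 values without an adjusted p kept their direction but moved further. The sign turned in 16, a call was gained in 21 and lost in 40.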
